A study of Mus musculus with 43 samples.

Results

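Divergent promoters of protein-coding gene pairs are stretches of DNA from which 2 neighbouring genes are transcribed away from each other, one on each strand. Members were found in the GENCODE vM21 annotation of the mouse genome (GRCm38), as pairs of autosomal protein-coding genes with the minus-strand gene upstream and 5′ ends at most 1000 bp apart, and each region holds the stretch between both ends plus 1000 bp on each side. There were 734 such pairs with 1448 genes, 6.96% of 20807 autosomal protein-coding genes, and 20 genes belong to 2 pairs. No measured value entered this choice. The distance between both 5′ ends ran from 1 to 987 bp with a median of 128 bp, and 602 pairs were at most 300 bp apart. At the edge of the rule, 10 pairs were over 900 bp apart, and 11 pairs left out were over 1000 and up to 1100 bp apart. An H3K4me3 summit in at least 2 lists at P7 was found in 80.0% of the former and 81.8% of the latter.

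The study mapped 5 histone arginine methylation marks, H3K27ac and H3K4me3 in mouse male germ cells, and measured RNA after loss of the arginine methyltransferase Prmt1. The 31 wild-type (WT) peak lists come from CUT&Tag, which cuts DNA next to an antibody-bound mark, on cells isolated from testes of C57BL/6J mice at postnatal day 7 (P7) and day 14 (P14). The label of P14 samples names spermatogonia in the title and spermatocytes as cell type. Prmt1-dKO mice carry floxed Prmt1 alleles and a tamoxifen-inducible Cre expressed with a green fluorescent protein from the Ddx4 promoter, which is active in germ cells. From P7 Prmt1-dKO mice there are 2 H4R3me2s lists, 3 bulk RNA-seq libraries set against 3 of WT, and 2 Smart-seq2 libraries set against 2 labelled WT. The bulk libraries are labelled spermatogonia, whereas their protocol describes RNA of testis, so they hold somatic cells too. Smart-seq2 used spermatogonia sorted by fluorescence, and the sorting methods name controls that are heterozygous for the floxed allele and carry the Cre. Tamoxifen switched on the Cre in Prmt1-dKO mice, and the labels give no treatment for WT. The study's methods describe its experiments as biological replicates in general, and the labels do not name the animals behind each sample, so p-values measure the spread between these samples.

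A divergent promoter holds 2 core promoters, one per direction, in a shared nucleosome-depleted stretch, with marked nucleosomes on both flanks. Such promoters are mostly CpG islands without a TATA box and are known for housekeeping genes and DNA repair genes. H3K4me3 and H3K27ac mark active promoters. PRMT1 is the main enzyme for asymmetric dimethylation of arginine 3 of histone H4 (H4R3me2a), symmetric dimethylation of the same residue (H4R3me2s) is laid down by other enzymes such as PRMT5, and H4R3me1 is the monomethylated form. H3R2me2a and H3R8me2a are asymmetric dimethyl marks of histone H3.

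The stretches between both 5′ ends are shown for pairs on which later results turn, read on the plus strand of GRCm38.p6, with capitals marking matches to 7 short motifs on either strand. The motifs searched were NRF1 (GCATGCGC), ETS (CCGGAAGT), the CCAAT box (CCAAT), the GC box (GGGCGG), CRE (TGACGTCA), YY1 (AAGATGGC) and the TATA box (TATAAA), and overlapping matches are written as 1 run of capitals. A match is a description and not a bound site. The first 3 carried all 7 marks at both ages and lie at chr1:105663678-105663860, chr1:191575545-191575635 and chr6:124829485-124829546. In Usp5/Cdca3 the capitals are 2 overlapping NRF1 matches, one on each strand.
Pign/Relch: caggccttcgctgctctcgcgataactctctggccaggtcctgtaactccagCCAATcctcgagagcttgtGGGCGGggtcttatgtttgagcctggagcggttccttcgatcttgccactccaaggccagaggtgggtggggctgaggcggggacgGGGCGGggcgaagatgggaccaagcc
Dtl/Ints7: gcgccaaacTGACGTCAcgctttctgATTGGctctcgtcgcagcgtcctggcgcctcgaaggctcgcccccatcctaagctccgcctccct
Usp5/Cdca3: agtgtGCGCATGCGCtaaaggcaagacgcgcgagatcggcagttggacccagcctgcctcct

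Of the textbook bidirectional pairs, the stretch of Brca1/Nbr1 (chr11:101551956-101552148) is shown, which holds 1 CCAAT box match.
Brca1/Nbr1: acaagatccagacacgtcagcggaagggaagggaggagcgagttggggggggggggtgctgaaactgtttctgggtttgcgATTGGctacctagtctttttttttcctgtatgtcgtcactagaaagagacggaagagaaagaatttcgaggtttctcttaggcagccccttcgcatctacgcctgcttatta

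Pairs with genes called in Prmt1-dKO testes are shown by Il17rb/Chdh (chr14:30008897-30009022), where both genes were called, Pgm3/Rwdd2a (chr9:86571843-86571990), Mmab/Mvk (chr5:114444061-114444268) and Sgsh/Slc26a11, whose stretch has 20 bases (chr11:119355537-119355556). Pgm3/Rwdd2a holds 7 matches, and Mmab/Mvk holds CCAAT box matches on both strands.
Il17rb/Chdh: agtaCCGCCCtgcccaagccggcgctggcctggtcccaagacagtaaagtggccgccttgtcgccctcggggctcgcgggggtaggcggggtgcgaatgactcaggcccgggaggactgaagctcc
Pgm3/Rwdd2a: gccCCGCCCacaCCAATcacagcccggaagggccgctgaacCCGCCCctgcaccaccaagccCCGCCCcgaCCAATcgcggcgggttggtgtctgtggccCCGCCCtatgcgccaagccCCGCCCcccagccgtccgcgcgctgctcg
Mmab/Mvk: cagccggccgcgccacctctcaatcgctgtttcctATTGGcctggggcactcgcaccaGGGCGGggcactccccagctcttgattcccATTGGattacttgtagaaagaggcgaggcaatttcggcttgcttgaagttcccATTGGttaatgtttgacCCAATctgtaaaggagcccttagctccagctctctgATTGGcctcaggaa
Sgsh/Slc26a11: gtgcacggcaggccCCGCCC

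The last 2 had no summit of any mark in any WT list, Stap2/Mpnd (chr17:56005585-56005710) and Rnf151/Rps2 (chr17:24718064-24718115), and their CpG content was low, with observed over expected ratios of 0.292 and 0.222.
Stap2/Mpnd: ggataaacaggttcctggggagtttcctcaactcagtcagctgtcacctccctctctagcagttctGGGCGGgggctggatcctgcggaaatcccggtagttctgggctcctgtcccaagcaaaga
Rnf151/Rps2: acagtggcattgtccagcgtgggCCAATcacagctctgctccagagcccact

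Over all members, promoters were rich in CpG and in several of these motifs and poor in TATA boxes. In the window from 250 bases before to 50 bases after each 5′ end, 82.5% of the 1448 genes were CpG-rich (GC of at least 50% and a CpG observed over expected ratio of at least 0.6). This share was 35.2% of 15414 single-promoter genes, which have no such partner, 72.8% of 757 genes paired with a long noncoding RNA (lncRNA), and 42.5% of all autosomal protein-coding genes. An ETS match was found in 13.3% of member promoters against 4.8% of all promoters, YY1 in 8.15% against 2.93%, NRF1 in 6.91% against 3.45% and CRE in 4.63% against 2.43%. The GC box was found in 68.9% against 43.7%, the CCAAT box in 43.6% against 38.6%, and the TATA box in 4.14% against 12.7%. Genes paired with a lncRNA were close to members in the GC box (67.4%), TATA box (5.55%), CCAAT box (40.4%) and NRF1 (5.42%), and had ETS in 8.32%, CRE in 3.83% and YY1 in 3.30%. Windows of both genes of a pair overlap, so these shares are not independent.

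Between both 5′ ends, 73.4% of the 734 pairs held at least 1 of these motifs, with a GC box in 391 and a CCAAT box in 284. Pairs whose ends lie at least 50 bp apart and hold a TATA box match between them (29 pairs) had a median geometric mean of both genes of 3.24 TPM (a level scaled to transcript length and library size) in WT testis, compared with 22.2 TPM in the 582 pairs without one. Their median gap was also longer, 451 against 149 bp. H4R3me2a at P14 marked 48.3% of the former and 75.3% of the latter.

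At P7, a summit of H3K4me3 lay in nearly every divergent region, one of H3K27ac in 73.0% on average, and one of each asymmetric arginine mark in 23.7% to 34.6%. A region was counted when the summit of a peak, its highest point, fell inside it. H3K4me3 had a summit in 95.6% and 95.8% of regions in its P7 lists, and in 96.3% and 95.8% at P14. H3K27ac had 69.5% and 76.6% at P7 and 92.5% and 90.7% at P14. H4R3me2s stood at 51.4% and 51.5% at P7, the highest of the arginine marks at that age.

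The asymmetric marks and H4R3me1 were found in far more divergent regions at P14. H4R3me2a was found in 23.7%, 26.0% and 24.1% of regions in the 3 lists of P7 and in 64.6%, 74.7% and 73.4% in the 3 lists of P14. H3R2me2a stood at 28.9% and 26.0% at P7 and at 80.4% and 80.9% at P14. H3R8me2a stood at 31.6% and 34.6%, then at 71.5% and 75.5%. For these marks no list of P14 overlapped a list of P7. Single-promoter regions also had higher mean shares at P14. They went from 8.93% to 30.8% for H4R3me2a, from 10.9% to 41.8% for H3R2me2a and from 9.78% to 28.4% for H3R8me2a. The ratio of P14 to P7 was 3.45, 3.83 and 2.90 there, against 2.88, 2.94 and 2.22 in divergent regions.

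H4R3me1 differed more between its P7 lists, 36.2% and 24.1%, and stood at 67.3% and 70.3% at P14. H4R3me2s at P14 had 68.7%, 56.3% and 58.4%, all above both P7 lists. The peak names of these P14 H4R3me2s lists begin with another tag than those of the other P14 lists, and the age given here is that of the labels.

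The mean share was higher at P14 than at P7 by 46.3 percentage points for H4R3me2a, 53.2 for H3R2me2a and 40.4 for H3R8me2a. H4R3me1 and H4R3me2s were higher by 38.6 and 9.70, and H3K27ac and H3K4me3 by 18.6 and 0.341. Exact two-sided permutation tests over lists gave p = 0.10 for H4R3me2a, the smallest that 3 against 3 lists allow, 0.20 for H4R3me2s, 0.667 for H3K4me3 and 0.33 for the others, the smallest that 2 against 2 allow. Adjusted over the 7 marks the exact p was 0.389, and 0.667 for H3K4me3. Without P14 replicate 1 the difference of H4R3me2s was 5.93. P14 lists were also longer on average, by 1.32-fold (H4R3me1) to 2.62-fold (H3R2me2a), for every mark other than H4R3me2s, whose P14 lists had 0.885 times the length of its P7 lists. With lists of equal length, kept by best p, the differences were 34.4, 40.2, 28.2 and 35 percentage points for H4R3me2a, H3R2me2a, H3R8me2a and H4R3me1. For H3K27ac the difference was 44.8 percentage points with peaks of a q of at most 0.01. The read depth behind the lists is unknown, and age and sequencing of each list cannot be told apart.

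**Figure D1:**
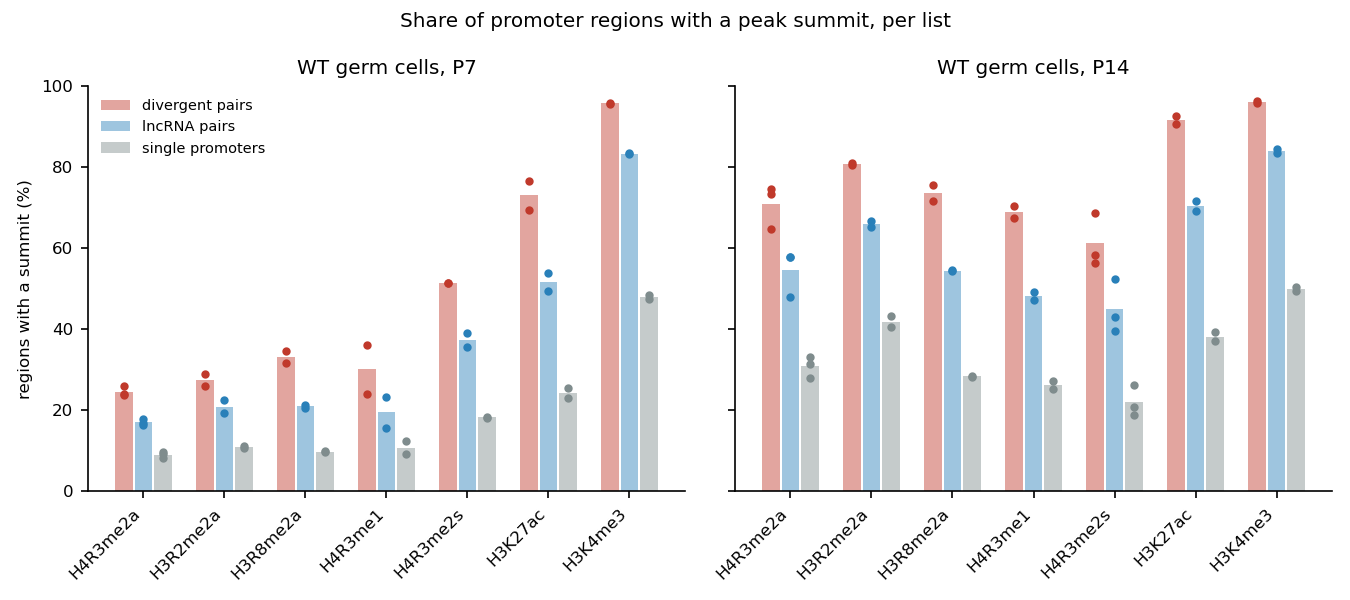
Share of regions with a peak summit (vertical axis, percent) for each of 7 marks in WT germ cells at P7 and P14, for 734 divergent pairs, 759 lncRNA pairs and 15414 single promoters; bars are means and points are single lists. The divergent pairs stand highest for every mark at both ages, and H4R3me2a reaches 70.9% at P14 against 24.6% at P7.

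Region by region, nearly all divergent promoters with an arginine mark at P7 also had it at P14. A region is called marked when at least 2 lists hold a summit. H4R3me2a marked 140 regions at both ages, 396 at P14 alone and 6 at P7 alone, while 192 had it at neither age. H3R2me2a marked 435 regions at P14 alone and 2 at P7 alone. H4R3me2s marked 217 at both ages, 257 at P14 alone and 24 at P7 alone. For this mark the rule asks for both lists at P7 but for 2 of 3 lists at P14, so it is easier to meet at P14, and the share per list differed less (51.4% and 61.1% on average).

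Of the 734 regions, 369 (50.3%) had none of the 5 arginine marks at P7 and 104 (14.2%) had none at P14. All 5 were found in 17 regions at P7 and in 302 (41.1%) at P14. The same 17 regions of P7 had all 7 marks at both ages. H3K4me3 was absent from every list in 24 regions (3.27%).

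Marked regions were more often those with both genes expressed. Where both genes had at least 1 TPM in WT testis at P7 (616 regions), H4R3me2a marked 76.5% at P14, compared with 61.0% of 105 regions with 1 gene (2 of these have no value for the other gene) and 7.69% of 13 regions with neither gene at that level. H4R3me2s at P7 marked 35.7%, 20% and 0% of the same groups, and H3K4me3 at P7 98.9%, 82.9% and 38.5%. RNA was measured at P7, so the P14 marks are set against P7 levels.

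Arginine marks at P7 were least frequent in regions with the shortest gaps. H3R2me2a marked 8.50% of 306 regions with a gap of 1 to 100 bp, 15.5% of 296 above that, a gap of up to 300 bp and 22% of 132 with a longer gap at P7, and the regions with longer gaps are themselves longer. H4R3me2s at P7 stood at 24.2%, 39.9% and 37.1% in the same classes, and H4R3me1 at 9.15%, 18.2% and 18.9%. H3K4me3 ran the other way, with 97.4%, 95.3% and 91.7%.

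Divergent regions held a summit more often than single promoters in every WT list of every mark. At P14 H4R3me2a was found in 70.9% ± 5.50 of divergent regions and 30.8% ± 2.63 of single-promoter regions (SD, n = 3 lists), windows of 2129 bp around the 5′ end. Averaged over both ages, the difference was 27.9 percentage points for H4R3me2a (14.5 to 42.1 over 6 lists) and 27.7 for H3R2me2a. For H3R8me2a it was 34.2, for H4R3me1 31.1 and for H4R3me2s 36.8. H3K27ac and H3K4me3 differed by 51.2 and 47.0. An exact two-sided sign-flip permutation test over lists gave p = 0.031 for H4R3me2a, 0.062 for H4R3me2s and 0.12 for the other marks, each the smallest that the number of lists allows, and 0.12 for all when adjusted over 7 marks. Pairs of a protein-coding gene with a lncRNA lay between, and divergent pairs exceeded them in every list by a mean of 10.7 percentage points (H3R2me2a) to 21.3 (H3K27ac), with the same exact p-values. Other pairs of protein-coding genes were also below divergent pairs. Pairs over 1000 and up to 10000 bp apart, whose regions are longer (median 7899 against 2129 bp), had a lower share than divergent pairs in all 31 WT lists. Their mean share of H4R3me2a was 23.1% at P7 and 56.6% at P14, against 24.6% and 70.9%, the former being the smallest gap of any mark and age. For H3K27ac at P7 it was 51.2% against 73.0%, and for H3K4me3 at P7 76.3% against 95.7%. Of 446 pairs with overlapping 5′ ends, H4R3me2a marked 67.0% at P14 and H3K4me3 90.4% at P7, against 73.0% and 95.5% of divergent regions. The differences from these 2 classes were not tested.

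The difference was smaller among expressed genes and CpG-rich promoters, which are more frequent in divergent pairs. Among 616 divergent pairs with both genes at 1 TPM or more and 8788 single promoters of such genes, the difference for H3K4me3 was 21.4 percentage points. With CpG-rich promoters required as well (496 pairs and 4898 single promoters, a setting chosen after seeing the data), it was 3.46 for H3K4me3 and 21.8 for H3K27ac. The arginine marks stood between 9.67 (H3R2me2a) and 20.3 (H4R3me2s), and every list was still higher in divergent pairs. A divergent region holds 2 promoters of this kind and a single one holds 1, and the part of this in the difference was not tested.

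**Figure D2:**
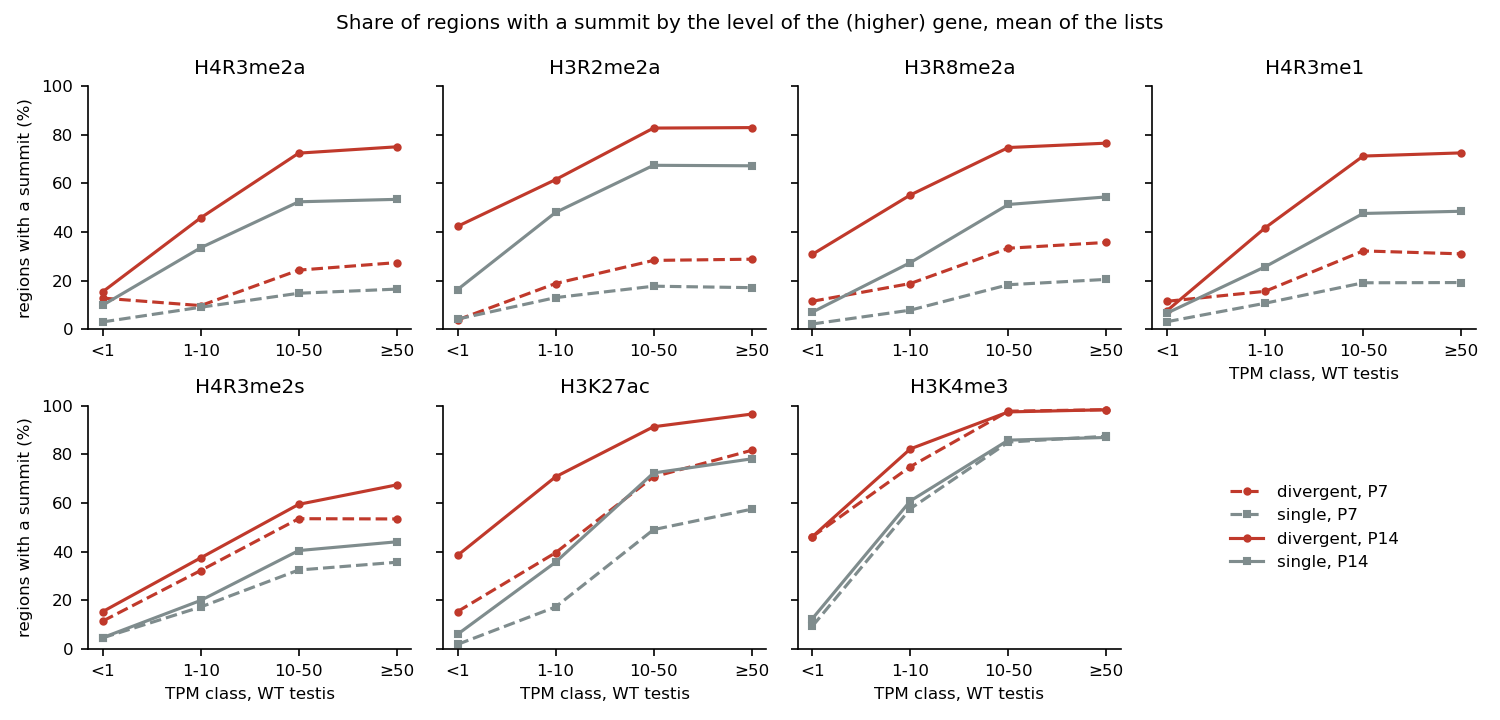
Share of regions with a summit (vertical axis, percent, mean of the lists) by the TPM of the gene, or of the higher gene of a pair, in WT testis at P7 (horizontal axis), for divergent pairs and single promoters at P7 (dashed) and P14 (solid). Among genes of 50 TPM or more, H4R3me2s at P14 was found in 67.5% of 353 divergent and 44.1% of 2293 single-promoter regions, and the class under 1 TPM holds 13 divergent regions only.

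The stretch between both 5′ ends makes up 8.73% of the bases of divergent regions. H3K4me3 had 5.33% of its P7 summits between the ends, and the other marks between 11.2% and 16.1% in WT at that age. At P14 H3K4me3 had 9.49%, close to H3K27ac (9.71%) and H3R2me2a (9.93%). The median distance from the midpoint of the pair was 296 bp at P7 and 241 bp at P14 for H3K4me3, and between 236 and 275 bp for H4R3me2a, H3R2me2a, H3R8me2a, H4R3me1 and H3K27ac at both ages. H3K4me3 peaks were also the widest, with a median of 1270 bp at P7 compared with 273 bp for H4R3me2a.

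In 309 pairs whose genes differed at least 4-fold in WT testis, H3K4me3 summits lay mostly on the side of the higher gene. They did so in 75% and 73.0% of cases in the P7 lists and in 71.6% and 71.9% at P14. Summits between both 5′ ends are left out of these shares and of those that follow. H4R3me2a stood at 61.7%, 71.9% and 62.3% at P7, H3K27ac at 61.0% and 61.5%, and H3R8me2a at 47.7% and 55.1%. Outside H3K4me3, the P14 lists stood between 52.2% and 62.0%.

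**Figure D3:**
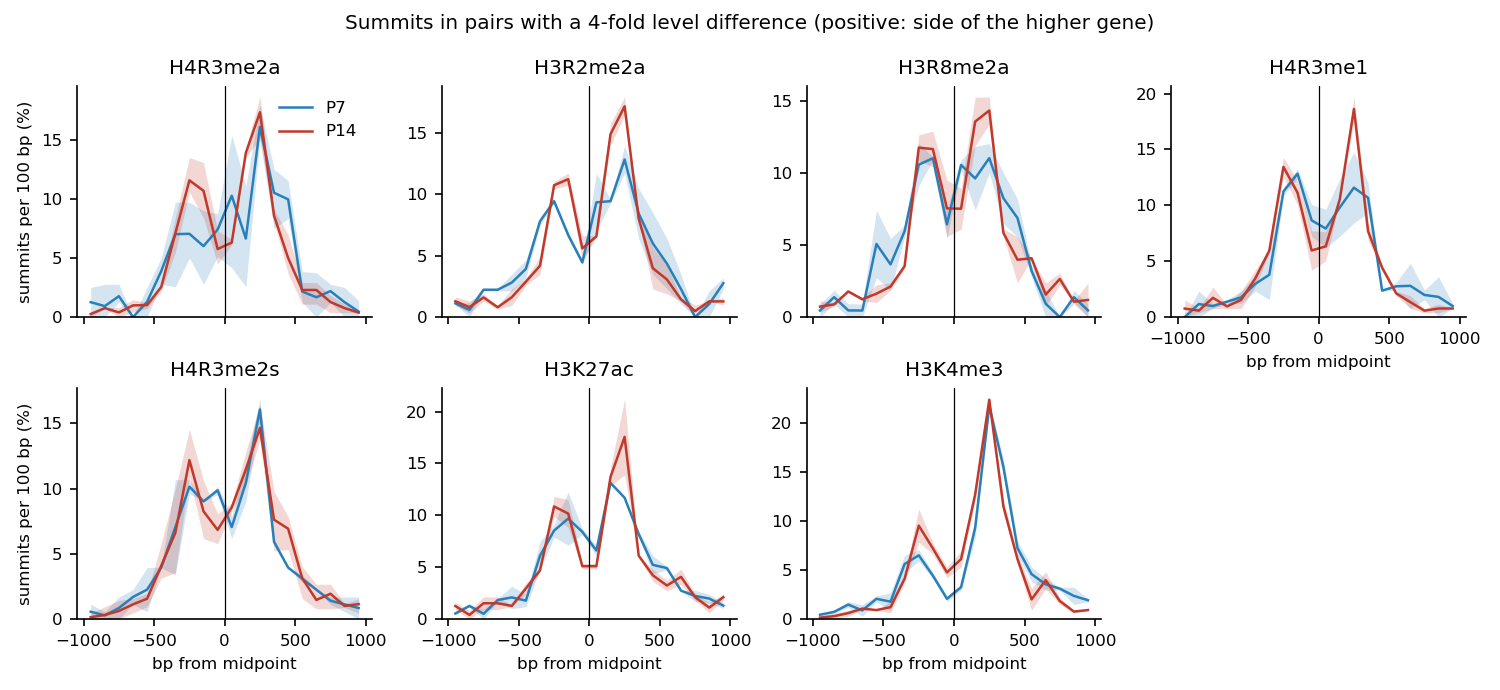
Position of summits relative to the midpoint between both 5′ ends (horizontal axis, bp), as percent of summits per 100 bp (vertical axis), in the 309 pairs with a 4-fold difference in level, turned so that the higher gene lies to the right; lines are means and shading spans the lists. Every mark has a maximum on each side of the midpoint, and the right one stands out most for H3K4me3. Of its P7 summits outside the stretch between both 5′ ends, 74.0% lay on the side of the higher gene.

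Both genes of a divergent pair were usually expressed, at levels that were only loosely related. At 1 TPM or more in WT testis were both genes of 616 of 732 pairs with values (84.2%), compared with 53.6% of 1021 pairs whose ends lie over 1000 and up to 10000 bp apart and 28.0% of 738 lncRNA pairs. Protein-coding pairs with overlapping 5′ ends stood close to them, with 80.5% of 440 pairs. In WT spermatogonia both genes of 592 pairs (80.9%) reached it. The median level of member genes was 25 TPM in WT testis against 2.81 TPM for single-promoter genes.

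Across 732 pairs, which share libraries, Pearson's r of log2(TPM + 1) between both genes was 0.130 (Spearman's rho 0.12) in WT testis and 0.201 (0.182) in WT spermatogonia, a weak relation that is given as a description. It was 0.106 and 0.0342 among pairs with both genes at 1 TPM or more. The median ratio of the higher to the lower gene was 3.04-fold in testis, 230 pairs were within 2-fold, and 309 (42.2%) were more than 4-fold apart. Which gene was higher held across libraries. The same gene was higher in all 3 WT testis libraries in 575 of the 616 pairs with both genes expressed (93.3%). In 480 of these both WT spermatogonia libraries had the same gene higher, and in 403 (84.0%) it was the one that was higher in testis, while 77 pairs had the other gene higher.

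**Figure D4:**
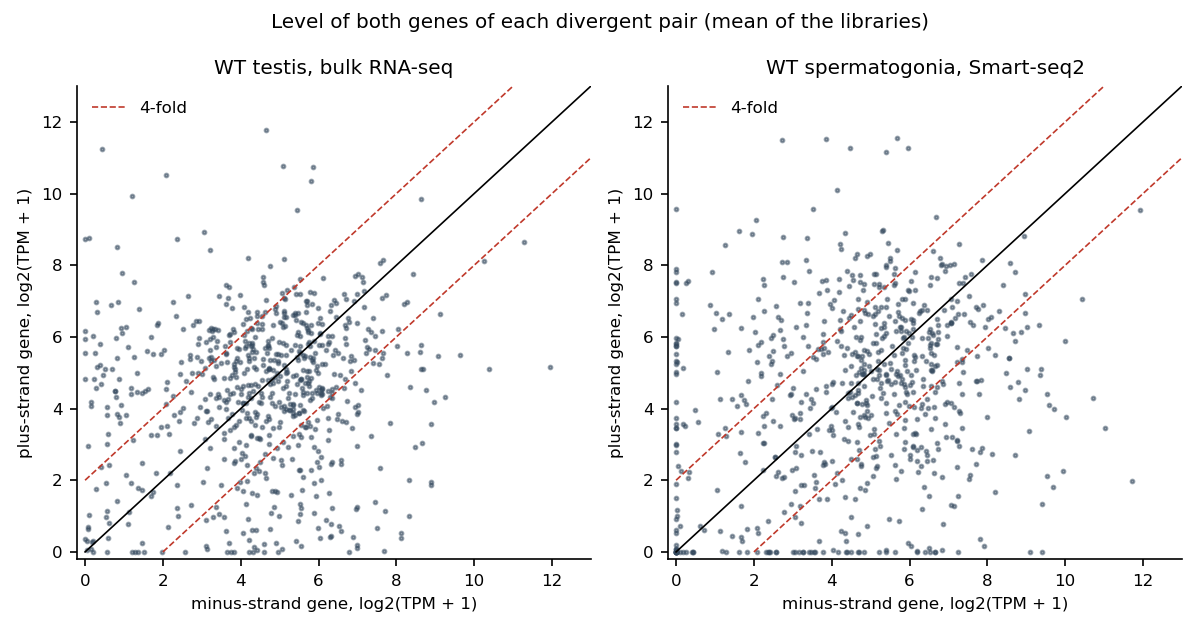
Level of the plus-strand gene against the minus-strand gene of each divergent pair, log2(TPM + 1), mean of 3 WT testis libraries (left) and of 2 WT spermatogonia libraries (right); the solid line marks equal levels and dashed lines 4-fold differences. In testis 309 of 732 pairs lie outside the dashed lines.

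Pairs with the highest joint level in WT spermatogonia were Rps28/Ndufa7, Hnrnpa2b1/Cbx3 and Ndufa2/Ik. Rps28, a protein of the small ribosomal subunit, had 3863 and 3848 TPM there and its partner Ndufa7, a subunit of respiratory complex I, 777 and 711 TPM. Their 5′ ends are 10 bp apart, and the region had no H3R2me2a, H3R8me2a or H4R3me1 summit in any list. Rps28 has near-identical copies that could share its reads. Hnrnpa2b1, a splicing regulator, had 548 and 439 TPM and Cbx3, a heterochromatin protein, 480 and 426 TPM. That region held a summit in 29 of 31 WT lists.

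Ratios in WT spermatogonia were ranked over 530 pairs whose higher gene was the same in both libraries, at 10 TPM or more. The widest were those of Rnf151/Rps2, Park7/Tnfrsf9 and Hist1h2ap/Hist1h2br. Rps2, a protein of the small ribosomal subunit with near-identical copies, had 639 and 887 TPM and Rnf151 was listed at 0 in both. Park7, a redox-sensing protein, had 720 and 626 TPM, and Tnfrsf9, a receptor of T cells, was listed at 0 in both. In WT testis Park7 had 279, 254 and 293 TPM and Tnfrsf9 0.91, 0.22 and 0.16 TPM. Hist1h2ap, a histone H2A gene, had 3483 and 3274 TPM in WT spermatogonia and 0, 9.0 and 3.58 TPM in WT testis. Such histone genes have near-identical copies among which reads can be split, so these values are uncertain.

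Regions with all 7 marks at both ages (13 with a gap of 30 to 300 bp) are illustrated by Pign/Relch, Dtl/Ints7 and Usp5/Cdca3, chosen for their joint level. Each held a summit in 30 of 31 WT lists and in both Prmt1-dKO H4R3me2s lists. Dtl, a substrate receptor of a ubiquitin ligase in replication, had 26.2, 25.8 and 24.2 TPM in WT testis, and Ints7, a subunit of the Integrator complex, 52.6, 53.7 and 44.2 TPM. Usp5, a deubiquitinase, had 116, 103 and 106 TPM and Cdca3, a cell cycle protein, 93.3, 83.0 and 77.2 TPM. In each of the 3 pairs both genes were within 2.51-fold of each other.

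At the other end, 5 regions had no H3K4me3 summit in any list while both genes reached 1 TPM in WT testis, which holds somatic cells too. Nisch, an imidazoline receptor protein, had 344, 319 and 289 TPM and its partner Sema3g, a semaphorin, 3.27, 2.65 and 3.19 TPM. The ends are 914 bp apart, and 2 of 31 WT lists held a summit there. Mpnd, a protease-like protein, had 44.2, 38.4 and 51.7 TPM and Stap2, an adaptor protein, 2.1, 2.67 and 2.29 TPM, with no summit in any WT list. Rnf14, a ubiquitin ligase, had 52.0, 48.4 and 43.7 TPM and Pcdh12, a protocadherin, 1.61, 2.52 and 1.87 TPM, also without a summit. In WT sorted spermatogonia Sema3g and Pcdh12 were listed at 0 TPM in both libraries. Stap2 had 3.09 and 16.5 TPM there and Mpnd 3.13 and 27.2 TPM. A gene's annotated 5′ end is used here, and transcripts that start elsewhere were not analysed.

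H4R3me2s was found in fewer divergent regions in Prmt1-dKO than in WT spermatogonia at P7. The share was 51.4% and 51.5% in the WT lists and 35.4% and 25.3% in the Prmt1-dKO lists, which do not overlap. The difference of the means was -21.0 percentage points (exact two-sided permutation p = 0.33, the smallest that 2 against 2 lists allow). It was -22 with lists of equal length and -10.6 with peaks of a q of at most 0.01. Lists of 1 genotype differed in length, 19981 and 36145 peaks in WT and 33941 and 28221 in Prmt1-dKO.

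Region by region, 59 were marked in both genotypes, 182 in WT alone and 41 in Prmt1-dKO alone. A summit in both WT lists and in no Prmt1-dKO list was found in 72 regions, and the reverse in 9. Genes of these 72 regions had a median log2 fold change in Prmt1-dKO testes of 0.01 over 135 genes tested. The median was -0.08 for 114 genes of regions with a summit in all 4 lists, 0.07 for 276 genes of regions with none, and 0.02 for all 16554 genes tested. Single-promoter regions also stood lower in Prmt1-dKO, at 12.0% ± 2.15 against 18.2% ± 0.147 (SD, n = 2 lists each).

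Prmt1 itself was lower in Prmt1-dKO testes, as a check on the labels, with 652, 604 and 638 TPM in WT and 410, 433 and 402 TPM in Prmt1-dKO. The groups do not overlap, and the log2 fold change was -0.49 (SE 0.13). Its false discovery rate (FDR), the Benjamini-Hochberg adjusted p of the quasi-likelihood test of edgeR, was 0.0334. With 1 library left out this FDR reached 0.105. The deletion removes part of the gene, and exons outside it still give reads, which limits this check. In sorted spermatogonia Prmt1 had 350 and 239 TPM in WT and 179 and 151 TPM in Prmt1-dKO (log2 fold change -0.88, SE 0.26, FDR = 0.133 from edgeR). Bulk libraries totalled 12396317 to 16598233 counts and Smart-seq2 libraries 15610354 to 18547078.

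Few genes of divergent pairs changed in Prmt1-dKO testes, and called genes mostly had a partner that was not called, as in other gene pairs. Calls needed a 2-fold change or more together with an FDR under 0.05. Of 1342 members tested, 20 (1.49%) were called higher, beside 5.32% of all 16554 genes tested, and 8 (0.596%) were called lower, beside 1.78%. The median log2 fold change was 0.01 for members and 0.02 for all genes. Members spread less, with 5th and 95th percentiles of -0.52 and 0.72 against -0.73 and 1.29 for all genes. Without WT replicate 1, 8 members were called higher and 4 lower, without WT replicate 2, 9 and 5, and without Prmt1-dKO replicate 3, 3 were called lower.

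Summed levels of cell type markers in the testes also differed between genotypes. Summed TPM of 8 germ cell markers ran from 1519 to 1775 in WT and from 1428 to 1495 in Prmt1-dKO testes, with no marker called. Sertoli cell markers ran from 1711 to 1859 and from 895 to 1116 (1 of 7 tested called lower), Leydig cell markers from 789 to 891 and from 285 to 323 (4 of 7), and peritubular cell markers from 827 to 900 and from 290 to 507 (3 of 5). Macrophage markers ran from 64.8 to 72.9 and from 89.0 to 97.0, with 1 of 6 called higher. None of the listed markers was at 0 in every bulk library. Fewer cells of a type and less RNA per cell cannot be told apart in bulk libraries, and the part of cell makeup in the values that follow was not tested.

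Of 641 pairs with both genes tested, 1 had both genes called and 25 had 1 gene called. Of 572 pairs with a wider gap 1 had both and 39 had 1 gene called, and of 371 overlapping pairs 0 and 13. Across these pairs the log2 fold changes of both genes had a Pearson's r of 0.149 and the same sign in 57.1%, and in 572 pairs over 1000 and up to 10000 bp apart r was 0.0345 with 48.3% of the same sign. In 371 pairs with overlapping 5′ ends r was 0.139 with 54.2% of the same sign, near the values of divergent pairs. Both genes of a pair come from the same libraries. Partners of the 20 higher genes had a median log2 fold change of 0.05, with 11 above 0, and 7 tested partners of lower genes one of -0.14.

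**Figure D5:**
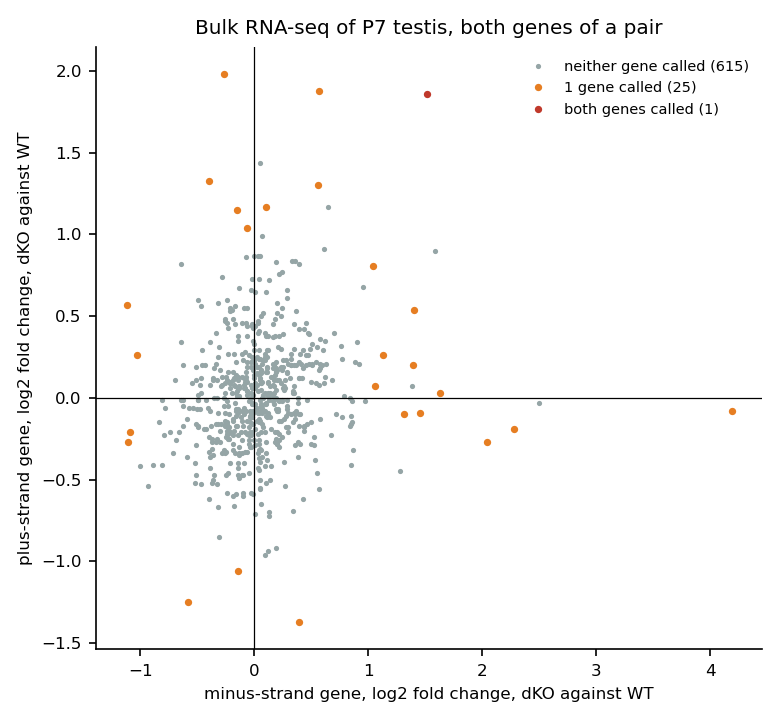
Log2 fold change in Prmt1-dKO against WT testes (bulk RNA-seq, n = 3 libraries each) of the plus-strand gene (vertical axis) against the minus-strand gene (horizontal axis) of 641 divergent pairs, coloured by how many of both genes were called. Called genes lie mostly along the axes, and 1 pair, Il17rb/Chdh, has both genes called.

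Il17rb and Chdh were the pair in which both genes were called, that is, higher by 2-fold or more. Il17rb (ENSMUSG00000015966.17, chromosome 14, 29996135 to 30008896), a receptor for interleukin 17 family cytokines, had 0.73, 0.88 and 0.72 TPM in WT and 2.27, 1.67 and 1.68 TPM in Prmt1-dKO testes. Chdh (ENSMUSG00000015970.19, chromosome 14, 30009023 to 30040527), choline dehydrogenase of mitochondria, had 1.48, 1.89 and 1.67 TPM and 6.33, 3.69 and 6.62 TPM. Both are low-level genes whose groups do not overlap, with log2 fold changes of 1.52 (SE 0.30, FDR = 0.00947 from edgeR) and 1.86 (SE 0.20, FDR = 0.00127). With single libraries left out, the FDR of Il17rb reached 0.0540 (without WT replicate 1 or 2 it was not called), and that of Chdh 0.0109. The region held no H3K4me3 summit at P7 and had one in both lists at P14. In Smart-seq2 libraries Chdh was listed at 0 throughout and Il17rb at most at 0.28 TPM.

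Among other higher genes Pcsk4, a proprotein convertase of germ cells, had 4.0, 3.90 and 3.37 TPM in WT and 7.53, 10.1 and 9.77 TPM in Prmt1-dKO (log2 fold change 1.45, SE 0.24, FDR = 0.00453 from edgeR). Its partner Reep6 had 20, 20.1 and 17.9 TPM and 12.1, 22.5 and 12.1 TPM, which overlap. Rwdd2a had 8.0, 7.54 and 8.15 TPM against 15.2, 11.8 and 26.5 TPM (log2 fold change 1.33, FDR = 0.0127). Its partner Pgm3, an enzyme of amino sugar synthesis, had a log2 fold change of -0.40 (FDR = 0.0490), under the 2-fold threshold. Here the genes of 1 pair lay on opposite sides of 0, and the FDR of Pgm3 reached 0.171 with 1 library left out. Leaving out WT replicate 1, WT replicate 2 or Prmt1-dKO replicate 3 ended the call of Rwdd2a, with an FDR of up to 0.0612 or a log2 fold change of down to 0.93.

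Cd274, which encodes the immune checkpoint ligand PD-L1, had 1.86, 1.96 and 2.22 TPM in WT and 4.83, 2.7 and 6.00 TPM in Prmt1-dKO testes (log2 fold change 1.30, SE 0.26, FDR = 0.00961 from edgeR). Its partner Plgrkt, a plasminogen receptor, had 38.2, 37.0 and 39.4 TPM against 50.5, 48.8 and 47.6 TPM (log2 fold change 0.56, FDR = 0.0212, under 2-fold). The FDR of Plgrkt reached 0.0977 with 1 library left out. Cd274 was not called without WT replicate 1 or 2, with an FDR of up to 0.0504. In sorted spermatogonia it was listed at 0 in both WT and at 4.87 and 4.89 TPM in both Prmt1-dKO libraries. It was not called there (FDR = 0.0774 from edgeR), in an assay where the 95th percentile of the log2 fold change over all genes was 8.01. Summed macrophage markers were also higher in these Prmt1-dKO libraries, and their part in this value was not tested. Xntrpc had 1.33, 0.93 and 1.88 TPM against 3.30, 2.50 and 2.54 TPM (log2 fold change 1.17, FDR = 0.0209, up to 0.0843 with 1 library left out). Its gene model may share reads with other models, so its value is uncertain.

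Among lower genes, Mvk and its partner Mmab were both below WT. Mvk (ENSMUSG00000041939.14, chromosome 5, 114444269 to 114460591), mevalonate kinase of sterol synthesis, had 43.4, 40.9 and 39.8 TPM in WT and 14.0, 18.9 and 9.21 TPM in Prmt1-dKO (log2 fold change -1.25, SE 0.25, FDR = 0.0105 from edgeR). Mmab, an enzyme of cobalamin metabolism, had 19.5, 20.4 and 17.4 TPM against 13.8, 9.25 and 10.1 TPM (log2 fold change -0.58, SE 0.13, FDR = 0.0138, under 2-fold). Sgsh, a lysosomal sulfatase, had 19, 16.0 and 17.3 TPM against 8.29, 7.28 and 6.06 TPM (log2 fold change -1.12, SE 0.15, FDR = 0.00216). Its partner Slc26a11, an anion transporter whose 5′ end lies 21 bp away, had 12.7, 13.3 and 10.9 TPM against 16.8, 12.8 and 19.3 TPM (log2 fold change 0.57, FDR = 0.0225). The genes of Sgsh/Slc26a11 thus lay on opposite sides of 0. With 1 library left out the FDR of Slc26a11 reached 0.103 and that of Mmab 0.0667. Without Prmt1-dKO replicate 3, the log2 fold change of Sgsh was -0.99, just under 2-fold.

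Prr11, a cell cycle gene, had 14.0, 11.7 and 10.4 TPM in WT and 5.82, 3.32 and 6.02 TPM in Prmt1-dKO (log2 fold change -1.11, SE 0.19, FDR = 0.00501 from edgeR), and -0.94 without Prmt1-dKO replicate 2. Its partner Ska2, a kinetochore protein, had a log2 fold change of -0.27 (FDR = 0.148). Lrch4 had 16.3, 16.5 and 13.4 TPM against 10.8, 3.58 and 4.65 TPM (log2 fold change -1.37, FDR = 0.0269), and Dnaaf1, an assembly factor of ciliary dynein, 4.27, 4.32 and 4.63 TPM against 1.91, 2.48 and 1.2 TPM (log2 fold change -1.06, FDR = 0.0364). The calls of Lrch4 and Dnaaf1 were each lost without any 1 of several libraries (WT replicate 1, 2 or 3 or Prmt1-dKO replicate 3, and for Dnaaf1 also Prmt1-dKO replicate 1), with an FDR of up to 0.0967 and 0.102. Their partners Fbxo24 and Hsdl1 had log2 fold changes of 0.39 and -0.14. With 1 library left out that of Fbxo24 ran from -0.12 to 0.68.

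Of 22 genes of textbook bidirectional pairs, 7 were members, in 4 pairs, and 0 of them were called by edgeR at 2-fold, beside 5.32% of all genes called higher and 1.78% lower, a background at which so few genes need hold no call. Mcm4, a subunit of the replicative helicase, had 81.0, 75.8 and 67.6 TPM in WT and 45.6, 25.6 and 37.4 TPM in Prmt1-dKO testes (log2 fold change -0.89, SE 0.15, FDR = 0.00453 from edgeR). Its partner Prkdc, the catalytic subunit of a DNA repair kinase, had 7.70, 8.73 and 6.71 TPM against 6.09, 4.52 and 5.05 TPM (log2 fold change -0.41, SE 0.12, FDR = 0.0405). Both genes of this pair stood below WT in every library.

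Brca1, of homologous recombination, had 19.8, 19.9 and 15.2 TPM against 13, 7.28 and 12.1 TPM (log2 fold change -0.63, SE 0.16, FDR = 0.0261 from edgeR), and its partner Nbr1, an autophagy receptor, a log2 fold change of -0.05 (FDR = 0.824). Atm, a DNA damage kinase, had 12.2, 14.9 and 11.6 TPM against 12.1, 5.83 and 7.77 TPM (log2 fold change -0.66, FDR = 0.0380), and its partner Npat, a regulator of histone genes, one of -0.21 (FDR = 0.417). With 1 library left out the FDR of Atm, Brca1 and Prkdc reached 0.153, 0.109 and 0.171, and that of Mcm4 0.0300. At P14 the regions of Mcm4/Prkdc, Brca1/Nbr1 and Atm/Npat held every mark in at least 1 list.

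Several gene groups had larger shares of their genes in divergent pairs than all genes did. Replication-dependent histones had 27 of 67 genes in divergent pairs (40.3%, 14 pairs), and DNA replication and repair genes 38 of 129 (29.5%). Mitochondrial proteins had 47 of 261 (18.0%), and symbols of RNA processing, ribosome and RNA polymerase genes 57 of 331 (17.2%, of which Rps6kb1 is a kinase and 9 are polymerase subunits), beside 6.96% of all autosomal protein-coding genes. Other groups stood near that background. Germ cell and meiosis genes had 5 of 64 (7.81%), namely Mcm8, Smc1b, Spata22, Stag3 and Tex14, zinc finger genes 26 of 465 (5.59%) and collagen symbols 3 of 45 (6.67%), of which Col4a3bp is no collagen.

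In Prmt1-dKO testes 0 of 38 replication and repair members, 0 of 5 germ cell members, 0 of 26 zinc finger members, 0 of 3 collagen symbols and 0 of 7 tested histone members were called by edgeR. All genes tested had 5.32% called higher and 1.78% lower, so lists of this size would hold few calls or none at that background. Of 47 mitochondrial members 1 was called higher (Slc25a27, an uncoupling protein family carrier), as was 1 of 57 members of the RNA processing, ribosome and polymerase list (Rps27, a ribosomal protein with near-identical copies). The call of Slc25a27 ended without Prmt1-dKO replicate 3 (log2 fold change 0.93), and that of Rps27 without Prmt1-dKO replicate 2 or 3 (down to 0.90). Median log2 fold changes were -0.10 for replication and repair, -0.53 for histones, 0.06 for mitochondrial proteins and 0.04 for the RNA processing, ribosome and polymerase list, beside 0.02 for all genes tested. Within the last list the ribosomal protein members stood above its median. Their log2 fold changes ran from 0.27 (Rpl36al, FDR = 0.396 from edgeR) to 1.06 (Rps27), and only Rps27 was called.

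In sorted spermatogonia edgeR called 0 of 16443 genes (0% in either direction) and 0 of 1342 members, the lowest FDR being 0.0774. Before adjustment, counting p under 0.05 with a 2-fold change or more, 67 members (4.99%) were higher, beside 13.8% of all genes tested (2267), and 83 (6.18%) were lower, beside 4.12% (678). DESeq2 called 38 members higher and 69 lower among 1568 genes called of 16782 tested. Leaving out a library leaves only 1 in its group, so calls from such fits are not given. The WT libraries differed between themselves in several members, such as Lrch4 with 575 and 2 counts.

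Named members in sorted spermatogonia are given by their levels. Hnrnpa2b1 had 548 and 439 TPM in WT and 739 and 933 TPM in Prmt1-dKO, and its partner Cbx3 480 and 426 against 785 and 888 TPM, with log2 fold changes of 0.94 and 1.07 (FDR = 0.0774 for both from edgeR). Pign had 169 and 131 against 32.5 and 25.9 TPM and its partner Relch 91.4 and 104 against 51.7 and 48.3 TPM, with log2 fold changes of -1.51 and -0.87 (FDR = 0.0774 for both). In each of these pairs both genes lay on the same side of WT without overlap. In Mmab/Mvk the log2 fold changes were 0.56 and -1.15. Over 638 divergent pairs tested in this assay, Pearson's r of both log2 fold changes was 0.114, with the same sign in 56.0%. The values were 0.00178 and 50.8% in 549 pairs with a wider gap, and 0.111 and 47.9% in 357 overlapping pairs. Summed TPM of germ cell markers ran from 2965 to 2979 in WT and from 2286 to 2339 in Prmt1-dKO spermatogonia. Summed TPM of macrophage markers ran from 0 to 5.02 in WT and from 27.4 to 34.9 in Prmt1-dKO spermatogonia, with 5 of 6 and 1 of 6 at 0. The part of these differences in the levels given was not tested.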

How the data were processed

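CUT&Tag was used for 33 samples (31 WT), bulk RNA-seq for 6 and Smart-seq2 for 4. Reads were trimmed with fastp 0.23.2 and mapped to mm10 by the authors, who called peaks per sample with MACS2 2.1.0. The deposited peak lists give fold enrichment (a ratio) and −log10 p and q values, with a p threshold of 0.005 for 29 lists and a q threshold of 0.05 for the other 4 in the peak names. RSEM, run by the authors, gave the deposited expected counts, TPM and FPKM per gene. FPKM was not used.

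Members, gene lists and comparisons were chosen with earlier results of these data known. A region had a mark when a summit lay inside it, and was marked with at least 2 such lists. Expected counts were rounded, filtered by filterByExpr, scaled by TMM and tested with edgeR 4.0.16 (quasi-likelihood, R 4.3.3), within each assay. Shares were compared over lists by exact permutation. TPM was used on the log2(TPM + 1) scale. Scripts were tested on simulated data. Alternatives were DESeq2 1.42.0, RLE size factors, no filter, a replicate block, other pseudocounts, a q of at most 0.01, equal list lengths and leaving out each library.

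Named genes were textbook pairs (1 is not reported here), up to 5 called members per direction with the largest fold change (mean of at least 50 counts, no overlap between genotypes), pairs with both genes called, 3 pairs each with the highest level and widest ratio in WT spermatogonia, 3 regions with all 7 marks, and 3 without H3K4me3. Figures were drawn with matplotlib 3.10.9, and tables were made in Python 3.11.15 using scipy 1.17.1, pandas 2.3.3 and numpy 2.4.6.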

Additional observations from a re-analysis of the deposited data

Results flagged for a closer look

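On the scale of counts divided by TMM-scaled library size, every Prmt1-dKO library lay on one side of every WT library in bulk RNA-seq and on the other side in Smart-seq2 for 4 of the named genes. Members that were not named were not searched for this pattern. In TPM the Smart-seq2 groups overlapped for Mmab and Mcm4. The difference between both assays was not tested. Mmab had a log2 fold change of -0.58 in bulk RNA-seq and 0.56 (SE 0.79) in Smart-seq2. Its mean TPM in Smart-seq2 ran the other way, 8.63 in WT and 5.94 in Prmt1-dKO. Hnrnpa2b1 had -0.24 and 0.94, and Mcm4 had -0.89 and 0.24. Sgsh had -1.12 and 4.56, where the Smart-seq2 value rests on few reads (0 and 3 for WT, 45 and 17 for Prmt1-dKO).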

How the results depend on the processing

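Bulk RNA-seq calls over all genes numbered 1175, and 1780 with DESeq2, 2152 without a filter and 898 to 1449 with 1 library left out. Members called higher numbered 8 to 20 and lower 3 to 12 with 1 library left out. In Smart-seq2, DESeq2 called 1568 genes (38 members higher and 69 lower), and leaving out 1 library gave 0 to 7436 genes, with 0 to 253 members higher and 0 to 165 lower. The P14 minus P7 difference of H3K4me3 was -0.749 percentage points with equal list lengths. The correlation of both levels was 0.144 in WT testis and 0.238 in WT spermatogonia with a pseudocount of 0.1, and 0.106 and 0.0342 in pairs with both genes at 1 TPM or more. The causes of these shifts were not tested. With a q of at most 0.01, the divergent minus single difference was 18.0 percentage points for H4R3me2a, 20.3 for H3R8me2a, 18.4 for H4R3me1 and 15.2 for H4R3me2s, and the divergent minus lncRNA difference of H4R3me2s was 7.84.

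Replicate numbers did not pair the samples (correlations of deviations of 0.0826, -0.221 and -0.119 in bulk RNA-seq). With the replicate number as a block, 950 genes were called in bulk RNA-seq, with 17 members higher and 6 lower, and 0 in Smart-seq2. Peak lists give no read depth, so an absent summit may be below detection.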
